A study of Mus musculus with 12 samples.

Results

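The mannose receptor gene Mrc1 and 9 further C-type lectin receptor genes (Clec10a, Mgl2, Clec7a, Clec4n, Clec4e, Clec4d, Clec4a2, Clec12a and Clec5a) were followed in mouse bone marrow-derived macrophages (BMMs). They are a list of receptors given by name, 10 of the 38887 genes in the tables. The cells came from wild-type (WT) mice and from mice in which Lyz2-Cre, active in myeloid cells, deletes the floxed exons 4 and 5 of Igf2bp2 (KO), an mRNA-binding protein gene. The WT animals were littermates without floxed alleles, with or without Cre, and the mice were 3 to 4 months old. All cells were differentiated for 6 days in 50 ng/ml M-CSF, the macrophage growth factor, and were then left untreated (M0) or given 20 ng/ml interleukin-4 (IL-4) for 8 h (M2). Each of the 4 groups (WT M0, KO M0, WT M2 and KO M2) had 3 libraries.

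C-type lectin receptors are surface proteins of myeloid cells, most of which bind sugars of microbes or of the body's own glycoproteins. Some, such as the mannose receptor, take up their ligand by endocytosis, and others signal through the kinase Syk, either directly or by pairing with the adaptor chains FcRγ (Fcer1g) or DAP12 (Tyrobp). The mannose receptor and the galactose-type lectins encoded by Clec10a and Mgl2 are widely used as markers of macrophages exposed to IL-4, and Clec4e and Clec4d encode Mincle and MCL, which recognise mycobacterial glycolipids.

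The libraries held between 20011792 and 39632770 estimated reads, and the WT M2 libraries were the smallest, so that low genes were measured least precisely there. Macrophage markers were abundant, at a sum over 10 genes of 15951 to 19744 TPM in WT M0 and 4500 to 4645 TPM in KO M0. In M2 the sum was 10730 to 11864 TPM in WT and 4133 to 4348 TPM in KO. The 10 genes include Lyz2, at 11048 to 15401 TPM in WT M0 and 33.8 to 50.2 TPM in KO M0. Of the 11 dendritic cell markers 9 lay below 1 TPM (a level scaled for transcript length and library total) in all 12 libraries. The summed dendritic markers were nevertheless higher with IL-4, at 27.6 to 33.3 TPM against 5.13 to 7.46 TPM in WT and at 20.7 to 25.5 TPM against 6.07 to 9.53 TPM in KO. Most of that sum was Itgax, an integrin gene that macrophages also express. Of the markers, 3 of the 3 fitted (Itgax, Zbtb46 and Kmo) were higher with IL-4 in both genotypes, against 24.9% of all genes tested in WT and 26.8% in KO. Their part in the IL-4 comparisons was not tested. Below 1 TPM throughout were 8 of 8 lymphocyte markers and 7 of 8 mast cell, basophil and eosinophil markers. The summed neutrophil markers lay between 30.7 and 80.4 TPM, with Ly6g, Mpo, Elane, Cxcr2 and Retnlg below 1 TPM. Of the 6 fitted, 3 were lower in KO in M0 (S100a9, -1.38, Ngp, -1.82, and Ltf, -2.09 on the log2 scale) and 1 was higher (Mmp8, 0.91), against 4.27% lower and 5.50% higher of all genes tested in that comparison. In M2 Mmp8 was higher (0.74) and 0 were lower by edgeR, against 1.21% higher and 1.46% lower of all genes tested. At an unadjusted edgeR p under 0.05, which 2611 of 12846 genes passed in M2, 2 were lower, and DESeq2 called 0 lower. The summed stromal markers ranged lower in KO, at 5.28 to 17.7 TPM against 16.97 to 30.7 TPM in WT in M0 and at 4.98 to 14.6 TPM against 18.2 to 33.4 TPM in M2, with 4 of the 8 markers (Dcn, Lum, Pdgfra and Pdgfrb) below 1 TPM in all libraries. The 7 monocyte markers summed to 25.7 to 27.6 TPM in KO against 14.2 to 26.9 TPM in WT in M0, and to 24.8 to 27.5 TPM against 15.7 to 23.6 TPM in M2, with Plac8 below 1 TPM. The part of these neutrophil, stromal and monocyte levels in the genotype comparisons was not tested. Lyz2, whose locus carries the Cre, fell by 8.30 on the log2 scale in KO against WT in M0 (edgeR adjusted p = 7.73e-10). Counted over the whole gene, Igf2bp2 stood at 70.1, 58.3 and 42.1 TPM in WT M0 and at 56.1, 48.5 and 53.8 TPM in KO M0. These ranges overlapped, and the log2 fold change of -0.11 was not called (adjusted p = 0.656), so the whole-gene level did not by itself mark the untreated KO libraries. In M2 the 3 WT libraries were above the 3 KO libraries for Igf2bp2 (log2 fold change -0.65, adjusted p = 0.0285).

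The 10 genes lie on chromosomes 2, 6 and 11 (GRCm38). Mrc1 (ENSMUSG00000026712) spans chr2:14229392-14332057 on the plus strand and holds the microRNA gene Mir511 within it. Mgl2 (ENSMUSG00000040950, chr11:70130329-70137550) and Clec10a (ENSMUSG00000000318, chr11:70156197-70170834) are neighbours on the plus strand, 18.6 kb apart. A group of 4 further receptors lies together on chromosome 6, namely Clec4a2 (chr6:123106428-123143999), Clec4n (chr6:123229843-123247021), Clec4d (chr6:123262111-123275265) and Clec4e (chr6:123281789-123289870), with Clec4e on the minus strand 6.52 kb from Clec4d. Clec12a (chr6:129342691-129365303) and Clec7a (chr6:129461591-129472779) stand 96.3 kb apart further along that chromosome, and Clec5a (chr6:40574894-40585821) lies alone.

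The bases before the start of transcription are shown for 3 genes that were higher with IL-4 and 2 that were lower, among them both genes that held the STAT6 type motif. Promoter windows from RefSeq (GRCm38.p6) were found for 8 of the 10 genes, all but Clec10a and Clec4n, and the 250 bases before each annotated start were read 5′ to 3′ on the strand of the gene. Mrc1, Mgl2 and Clec7a were the higher ones, and Clec4e and Clec5a the lower ones. Capitals mark matches, on either strand, to TTCNNNNGAA (the palindrome with a spacer of 4 bases that STAT6 is known to prefer), to TTCNNNGAA (the form with 3 bases) or to GAGGAA (the core bound by PU.1, the factor that defines the myeloid lineage).
Mrc1 (chr2:14229164-14229413, plus strand): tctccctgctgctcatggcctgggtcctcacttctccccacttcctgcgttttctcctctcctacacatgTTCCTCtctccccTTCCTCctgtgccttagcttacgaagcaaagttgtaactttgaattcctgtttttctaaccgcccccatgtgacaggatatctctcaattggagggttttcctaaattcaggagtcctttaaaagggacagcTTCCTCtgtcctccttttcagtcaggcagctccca
Mgl2 (chr11:70130107-70130356, plus strand): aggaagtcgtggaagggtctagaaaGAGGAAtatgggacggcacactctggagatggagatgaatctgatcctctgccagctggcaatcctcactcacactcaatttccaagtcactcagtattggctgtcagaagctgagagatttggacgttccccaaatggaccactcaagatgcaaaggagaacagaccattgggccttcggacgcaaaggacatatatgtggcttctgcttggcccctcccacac
Clec7a (chr6:129472780-129473029, minus strand): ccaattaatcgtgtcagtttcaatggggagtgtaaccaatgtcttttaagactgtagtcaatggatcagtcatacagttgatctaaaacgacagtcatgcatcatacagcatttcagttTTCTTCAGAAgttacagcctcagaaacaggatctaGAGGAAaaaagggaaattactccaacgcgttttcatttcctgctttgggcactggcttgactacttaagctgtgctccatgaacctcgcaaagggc
Clec4e (chr6:123289872-123290121, minus strand): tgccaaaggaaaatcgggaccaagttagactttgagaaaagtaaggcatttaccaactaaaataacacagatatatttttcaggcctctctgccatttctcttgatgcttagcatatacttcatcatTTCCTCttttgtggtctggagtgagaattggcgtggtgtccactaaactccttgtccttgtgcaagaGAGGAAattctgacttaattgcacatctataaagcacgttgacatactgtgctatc
Clec5a (chr6:40585806-40586055, minus strand): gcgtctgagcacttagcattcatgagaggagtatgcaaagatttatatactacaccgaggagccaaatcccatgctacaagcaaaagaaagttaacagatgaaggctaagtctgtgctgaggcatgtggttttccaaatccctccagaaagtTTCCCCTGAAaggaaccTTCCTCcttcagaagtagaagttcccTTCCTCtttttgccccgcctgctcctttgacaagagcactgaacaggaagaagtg

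TTCNNNNGAA was present in the windows of Clec7a, 131 bases before the start, and of Clec5a, 98 bases before the start, and in 5.85% of all 32851 windows. Of these a gene that was higher with IL-4 and one that was lower each held a match, and the windows of Mrc1 and Mgl2 held none. TTCNNNGAA was found only in the window of Clec4a2 among the 8 genes, against 7.02% of all windows. GAGGAA was present in 7 of the 8 genes, with 3 matches in Mrc1, against 23.3% of all windows. These matches describe the letters in short windows and say nothing of binding.

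In untreated WT cells the mycobacterial receptor genes were the most abundant of the list. Clec4d stood at 952, 938 and 986 TPM, Clec4e at 300, 421 and 574 TPM, and Clec12a, which encodes an inhibitory receptor for uric acid crystals, at 392, 366 and 359 TPM. The ranges of Clec4e and Clec12a overlapped, while Clec4d lay above both. Then came Clec5a (111 ± 18.2 TPM, mean ± SD, n = 3) and Mrc1 (90.1 ± 12.5 TPM), whose ranges overlapped, followed by Clec4a2 (62.6 ± 4.19 TPM), Clec7a (26.0 ± 4.42 TPM), Clec10a (16.2 ± 5.08 TPM), Clec4n (8.87 ± 1.84 TPM) and Mgl2 (0.503 ± 0.529 TPM). Mgl2 rested on 1.09 to 23.9 reads a library in WT M0, and its level there was close to the limit of detection.

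With IL-4 the order turned over. Mrc1 (845 ± 42.6 TPM), Clec7a (721 ± 69.1 TPM), Clec10a (366 ± 71.4 TPM) and Mgl2 (297 ± 129 TPM) were the 4 most abundant in WT M2, and Clec4d was next (254 ± 10.1 TPM). Below them stood Clec12a (173 ± 4.34 TPM), Clec5a (66.4 ± 9.31 TPM), Clec4a2 (46.9 ± 2.24 TPM), Clec4e (45.8 ± 8.06 TPM) and Clec4n (3.37 ± 1.31 TPM). The ranges of Clec10a and Mgl2, of Mgl2 and Clec4d and of Clec4a2 and Clec4e overlapped, so that their order was not resolved. KO cells had the same 3 genes at the top in M0 (Clec4d, Clec4e and Clec12a) and, by their means, the same 4 in M2. In KO M2 the ranges of Mrc1 (740 ± 68.2 TPM) and Clec7a (653 ± 36.3 TPM) overlapped, as did those of Mgl2 (287 ± 6.64 TPM) and Clec4d (281 ± 5.10 TPM), so that the place of Mgl2 among the top 4 was not resolved.

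**Figure D1:**
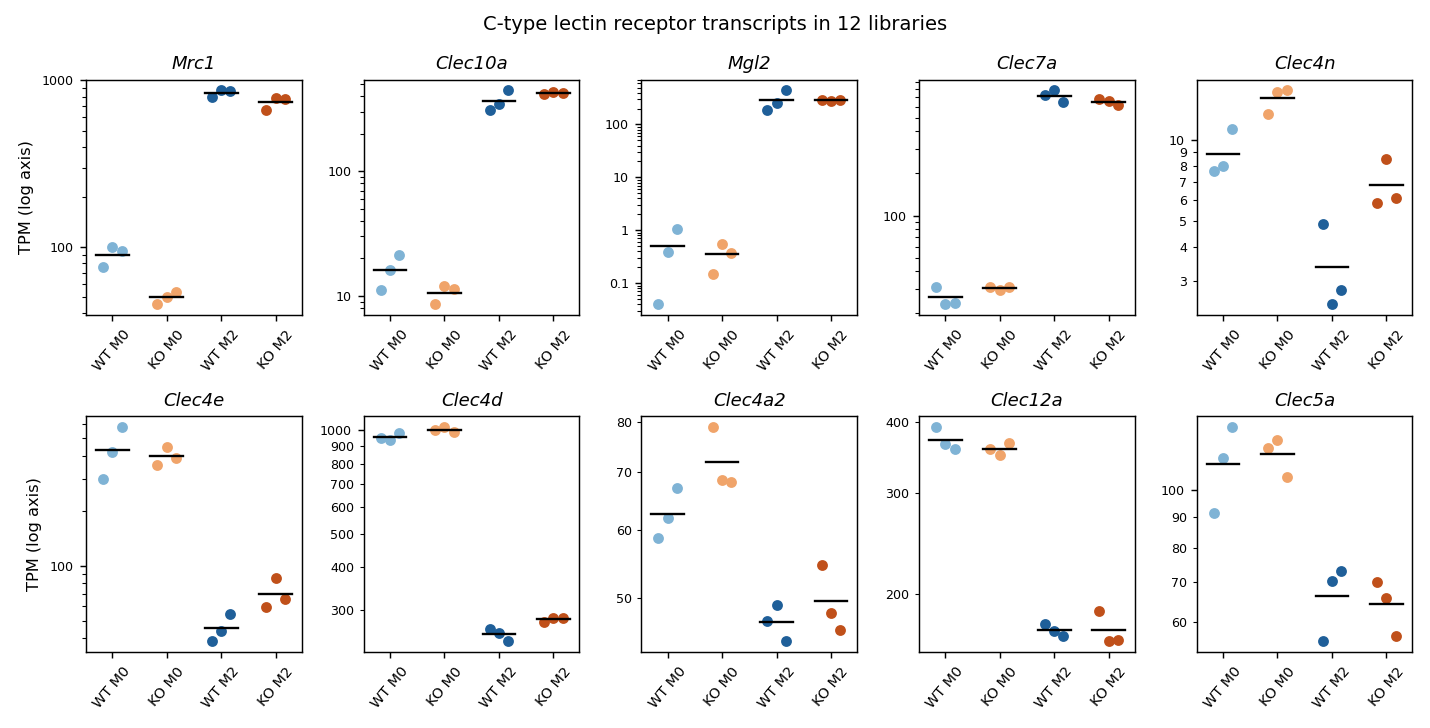
Level of each of the 10 genes in TPM on a log axis, with 1 point per library in the order of the library numbers and a line at the mean of the 3 libraries of a group. Mrc1, Clec10a, Mgl2 and Clec7a are higher in both M2 groups than in both M0 groups, the other 6 genes are lower, and each panel has its own axis.

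The summed level of the 10 genes moved less than their make-up. In WT it was 1920 to 2266 TPM untreated and 2613 to 2987 TPM with IL-4. In KO it was 2008 to 2118 TPM untreated and 2701 to 2824 TPM with IL-4. Clec4d made up 43.5% to 49.6% of the sum in WT M0 and 8.15% to 10.1% in WT M2. Mrc1 went the other way, from 3.95% to 4.86% of the sum in WT M0 to 29.0% to 30.6% in WT M2, and in KO it took 2.26% to 2.65% in M0 and 24.5% to 28.3% in M2.

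**Figure D2:**
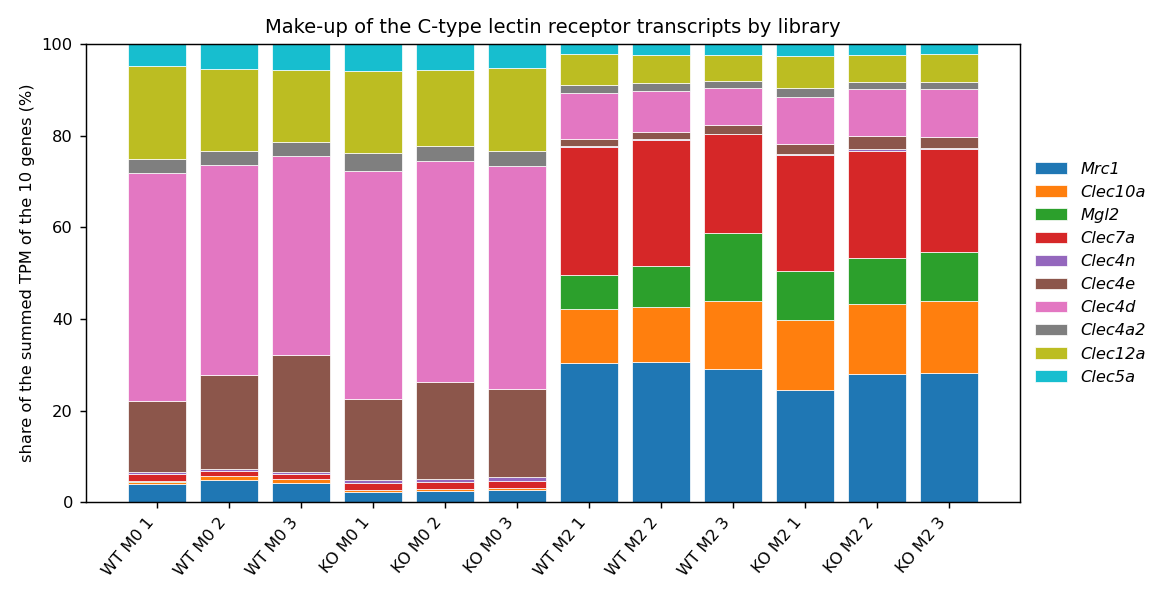
Share of each gene in the summed TPM of the 10 genes, in percent, with 1 bar for each of the 12 libraries. Clec4d, Clec4e and Clec12a fill most of the bars in M0, and Mrc1, Clec7a, Clec10a and Mgl2 fill most of them in M2.

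To ask how IL-4 changed these receptors, M2 was compared with M0 within each genotype. Calls were made with edgeR's quasi-likelihood test, at adjusted p-values under 0.05. In such bulk samples, more cells that carry a transcript and more transcript per cell cannot be told apart. All 10 genes were called in both genotypes, 4 higher and 6 lower, and for each of them the M0 and M2 ranges did not overlap. The ranges did not overlap for 50.2% of all genes tested in WT and for 58.7% in KO. The response was broad: of the 12846 genes tested 50.0% were called in WT, 24.9% higher and 25.1% lower, and 52.8% were called in KO, 26.8% higher and 26.0% lower. The median log2 fold change of the 10 genes was -0.52 in WT and -0.60 in KO, against -0.01 and 0.01 over all genes tested.

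Mrc1 stood at 75.9, 99.5 and 94.7 TPM in WT M0 and at 796, 872 and 867 TPM in WT M2. Every M2 library was thus far above every M0 library, a log2 fold change of 3.27 (SE 0.11, adjusted p = 1.40e-10). In KO the values were 45.5, 50.5 and 53.8 TPM in M0 and 662, 788 and 770 TPM in M2, a log2 fold change of 3.96 (SE 0.11, adjusted p = 3.80e-11).

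Clec10a, the galactose-type lectin MGL1, was at 11.2, 16.0 and 21.3 TPM in WT M0 and at 307, 344 and 445 TPM in WT M2. WT library 3 was the highest in both treatments and WT library 1 the lowest. The log2 fold change was 4.56 in WT (SE 0.23, adjusted p = 5.36e-09) and 5.42 in KO (SE 0.24, adjusted p = 1.56e-09), where the levels were 8.57, 12.0 and 11.3 TPM in M0 and 414, 436 and 424 TPM in M2.

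Mgl2, its neighbour on chromosome 11, was at 0.04, 0.39 and 1.08 TPM in WT M0 and at 191, 258 and 440 TPM in WT M2. Again WT library 3 was the highest in both treatments. In KO it was at 0.15, 0.56 and 0.38 TPM in M0 and at 289, 279 and 292 TPM in M2. The log2 fold changes of 9.18 in WT (SE 0.45) and 10.31 in KO (SE 0.49) rest on under 25 reads in any M0 library, and over the alternative settings they ran from 7.60 to 10.33 in WT and from 7.73 to 10.48 in KO. Clec10a and Mgl2 share reads with each other, which the authors' quantification divided between them.

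Clec7a encodes Dectin-1, the receptor for fungal β-glucan, which signals through Syk. It stood at 31.1, 23.3 and 23.7 TPM in WT M0 and at 732, 785 and 648 TPM in WT M2, so that the groups were far apart. In KO it stood at 30.9, 29.6 and 30.7 TPM in M0 and at 684, 663 and 613 TPM in M2. The log2 fold change was 4.84 in WT (SE 0.11, adjusted p = 5.95e-12) and 4.52 in KO (SE 0.11, adjusted p = 7.69e-12).

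Among the genes that were lower with IL-4, Clec4e had the largest change. In WT M2 it stood at 38.8, 44.0 and 54.6 TPM, all below the 300 TPM of the lowest WT M0 library. It fell by 3.23 on the log2 scale in WT (SE 0.24, adjusted p = 2.21e-07), and in KO, from 354, 447 and 391 TPM to 59.7, 86.0 and 65.5 TPM, it fell by 2.48 (SE 0.23, adjusted p = 1.42e-06). Its neighbour Clec4d went to 263, 257 and 243 TPM in WT M2, and it fell by 1.85 on the log2 scale in WT (SE 0.05), while its log2 fold change in KO was -1.75 (SE 0.05). The libraries of a group lay close together for Clec4d, whose spread within groups was smaller than that of most genes: 16.4% of the 9746 genes that averaged 5 CPM or more (reads scaled to the library total) had a smaller SD.

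Clec4n, encoding Dectin-2, a receptor for fungal mannans that pairs with FcRγ, was at 7.64, 7.98 and 10.99 TPM in WT M0 and at 4.87, 2.46 and 2.77 TPM in WT M2. It fell by 1.38 on the log2 scale in WT (SE 0.22, adjusted p = 1.59e-04) and by 1.17 in KO (SE 0.18, adjusted p = 1.35e-04). With 31 to 46 reads a library in WT M2 it was the least well counted of the group.

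The remaining 3 genes moved less. Clec12a went to 177, 173 and 169 TPM in WT M2, below all WT M0 libraries, and it fell by 1.03 in WT (SE 0.07) and by 0.99 in KO (SE 0.07). Clec5a, encoding a DAP12-coupled receptor known for binding dengue virus, was at 91.4, 113 and 127 TPM in WT M0 and at 55.8, 70.4 and 73.2 TPM in WT M2, and it fell by 0.72 in WT (SE 0.14) and by 0.73 in KO (SE 0.14). Clec4a2, encoding an inhibitory receptor (DCIR), fell by 0.31 in WT (SE 0.08, adjusted p = 0.00747) and by 0.47 in KO (SE 0.08, adjusted p = 2.69e-04). Without both libraries numbered WT 3, the WT value of Clec4a2 was -0.27 with an adjusted p of 0.0538.

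**Figure D3:**
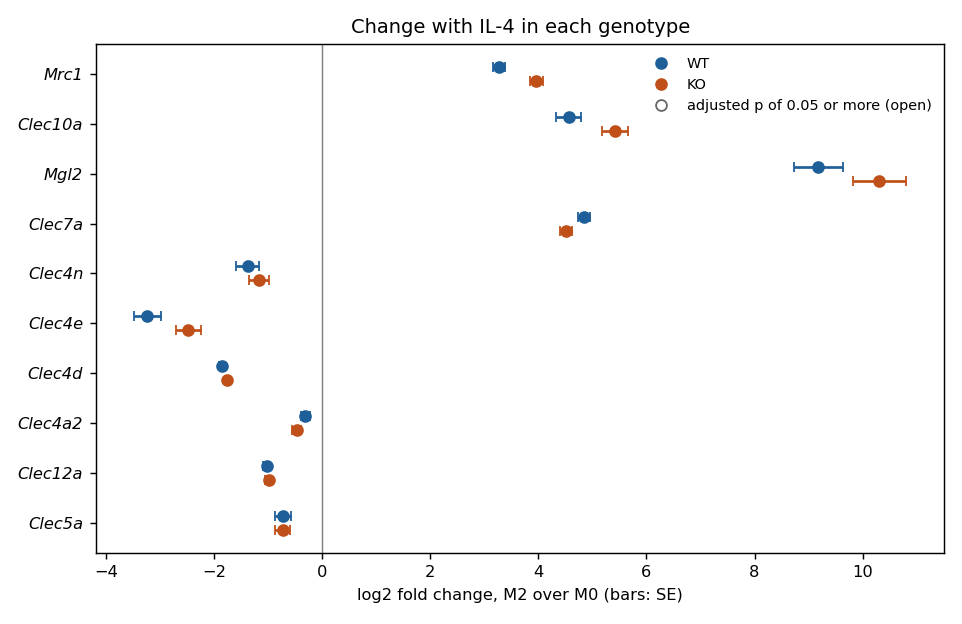
Log2 fold change of M2 over M0 for each gene in WT (blue) and KO (orange), with bars for the SE of the fit. Mgl2 has the largest change, at 9.18 in WT and 10.31 in KO, and every gene has the same sign in both genotypes.

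Neighbouring genes of the list shared their direction in some places and not in others. Mgl2 and Clec10a were both higher with IL-4. Clec4a2, Clec4n, Clec4d and Clec4e were all lower with IL-4, with log2 fold changes between -3.23 and -0.31 in WT, and Clec4b2, which lies among them, was below 0.1 TPM on average in each group. On the other side of Clec4a2, however, Clec4a3 was higher with IL-4 (log2 fold change 1.84 in WT and 1.48 in KO), as was Clec4a1 in WT (0.52, adjusted p = 0.00141), so that the whole Clec4 cluster did not move one way. Clec12a and Clec7a did not share theirs, as Clec12a was lower and Clec7a higher, with Clec12b, Clec1b, Clec9a and Clec1a between them at group means of 0.82 TPM or less.

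**Figure D4:**
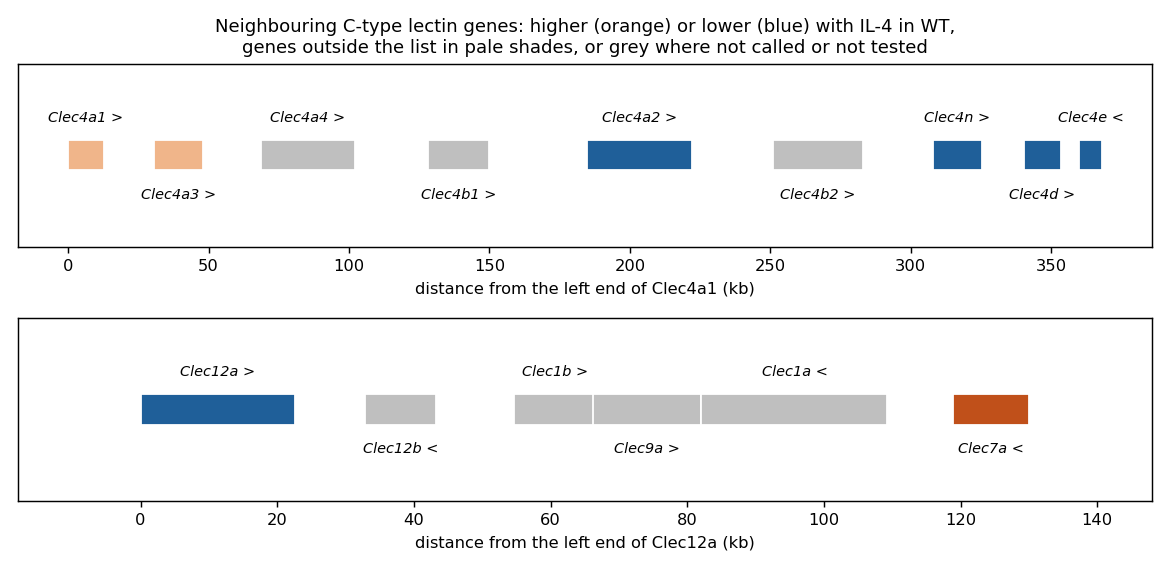
Maps of the Clec4 genes from Clec4a1 to Clec4e (top) and of the stretch from Clec12a to Clec7a (bottom), to scale, with the distance in kb from the left end of the first gene and arrowheads for the strand. The 4 Clec4 genes of the list are all lower with IL-4 in WT (blue), Clec12a is lower and Clec7a is higher (orange), and genes outside the list are pale orange where called higher (Clec4a1 and Clec4a3) and grey where not called or not tested.

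To ask whether these receptors differed between the genotypes, KO was compared with WT within each treatment. The KO libraries also held far less Lyz2 (log2 fold change -8.30 in M0 and -8.57 in M2). The part of the Cre allele and of Lyz2 in these comparisons was not tested. In M0, 1 of the 10 genes was higher (Clec4n) and 1 was lower (Mrc1), while of all genes tested 9.78% were called, 5.50% higher and 4.27% lower. In M2, 1 of the 10 was higher (Clec4n) and 0 were lower, against 2.68% of all genes, 1.21% higher and 1.46% lower. At an unadjusted p under 0.05 there were 3 higher and 2 lower in M0 and 3 higher and 0 lower in M2. Of all 12846 genes tested, 3252 passed that threshold in M0 and 2611 in M2, in either direction. DESeq2 called 2 higher and 1 lower in M0 and 2 higher and 0 lower in M2. Of the 12096 genes with an adjusted p in DESeq2, 936 were higher and 624 lower in M0, and 319 were higher and 398 lower in M2. The median log2 fold change of the 10 genes was -0.0008 in M0 and 0.06 in M2, and over all genes tested it was -0.0007 and -0.0009.

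Mrc1 was lower in untreated KO cells, with 45.5, 50.5 and 53.8 TPM in KO against 75.9, 99.5 and 94.7 TPM in WT. The groups did not overlap, and Mrc1 fell by 0.86 on the log2 scale (SE 0.10, adjusted p = 5.22e-04), 1.81-fold. It was called in each of the 12 fits that left out 1 library and under every alternative tried. In M2 the 3 KO libraries were again below the 3 WT libraries (662, 788 and 770 against 796, 872 and 867 TPM), but the log2 fold change of -0.16 (SE 0.10) was not called (adjusted p = 0.384).

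Clec4n was higher in KO in both treatments. In M0 it stood at 12.5, 15.01 and 15.2 TPM in KO against 7.64, 7.98 and 10.99 TPM in WT, a log2 fold change of 0.89 (SE 0.18, adjusted p = 0.00977). In M2 it stood at 5.83, 8.47 and 6.06 TPM against 4.87, 2.46 and 2.77 TPM, a log2 fold change of 1.11 (SE 0.22, adjusted p = 0.0244). The ranges did not overlap in either treatment, but the counts were low and the calls were less stable than that of Mrc1. In M0 the call was lost without WT M0 library 2 (adjusted p = 0.0544), and in M2 without WT M2 library 2 or 3 (0.116 and 0.0534) or KO M2 library 2 or 3 (0.0888 and 0.0817). In limma on log2(TPM + 1) the adjusted p was 0.0944 in M0 and 0.0745 in M2.

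The other 8 genes did not pass the test in either treatment. Clec4e in M2 had 59.7, 86.0 and 65.5 TPM in KO against 38.8, 44.0 and 54.6 TPM in WT, with all KO libraries above all WT libraries, and a log2 fold change of 0.72 (SE 0.23, adjusted p = 0.111). Clec4d in M2 was likewise separated, at 275, 284 and 284 TPM in KO and 263, 257 and 243 TPM in WT (log2 fold change 0.17, SE 0.05, adjusted p = 0.0897). Its ranges were also separated in M0, where the log2 fold change was 0.08 (adjusted p = 0.375). The share of all genes with separated ranges was not counted for KO against WT. Clec4a2 in M0 had 78.9, 68.6 and 68.1 TPM in KO and 58.7, 62.0 and 67.1 TPM in WT (log2 fold change 0.26, SE 0.08, adjusted p = 0.0605). These 3 values lay close to the threshold, and Clec4a2 in M0 (0.0362) and Clec4d in M2 (0.0282) passed it in DESeq2. Clec4e in M2 passed it in edgeR without a filter on low counts (0.0423) and with a block on the library number across genotypes (0.0426). Clec10a in M0 had a log2 fold change of -0.60 (SE 0.25, adjusted p = 0.151), with overlapping groups. This value rested on single WT M0 libraries, since it was -0.84 without library 1 (adjusted p = 0.0295) and -0.28 without library 3 (adjusted p = 0.456). Clec12a and Clec5a had values between -0.09 and 0.03 in both treatments.

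**Figure D5:**
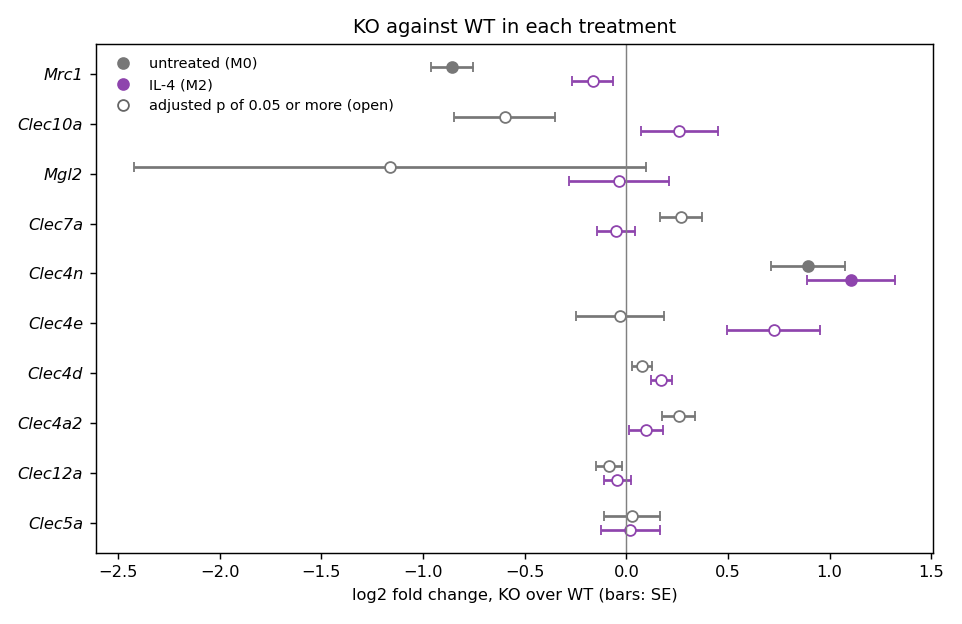
Log2 fold change of KO over WT for each gene in M0 (grey) and M2 (purple), with bars for the SE of the fit and open points where the adjusted p was 0.05 or more. Mrc1 in M0 (-0.86) and Clec4n in M0 and M2 (0.89 and 1.11) are the filled points, and Mgl2 in M0 has the widest bar.

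The IL-4 responses of both genotypes were then compared directly, as the difference KO minus WT. Mrc1 was the 1 gene of the 10 called, with a larger response in KO by 0.69 on the log2 scale (SE 0.14, adjusted p = 0.0233), and of all genes 3.24% were called, 1.11% higher and 2.13% lower. The response of Mrc1 started from the lower level of the KO M0 cells and reached the M2 levels given above. The call for Mrc1 was lost in limma on log2(TPM + 1) (adjusted p = 0.0592) and in 6 of the 12 fits that left out 1 library, where the adjusted p of these 6 lay between 0.0532 and 0.0689. They were the fits without library 2 of WT M0, library 2 of WT M2, library 1 or 2 of KO M0, or library 2 or 3 of KO M2. Clec10a (0.86, SE 0.31, adjusted p = 0.166) and Clec4e (0.75, SE 0.32, adjusted p = 0.236) had differences of similar size that were not called in this fit, which has no replicate block. Their calls depended on that choice, as given with the check of the library numbers.

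The spread among WT libraries was wide for Clec10a and Clec4e. Within groups the SD of log2 CPM was 0.34 for Clec10a and 0.33 for Clec4e, larger than that of 98.3% and 98.2% of the 9746 genes compared. Mgl2 is not ranked here, since its M0 libraries held too few reads. In WT, library 1 was the lowest and library 3 the highest for both genes in M0 and in M2, and for Mgl2 in M2. In KO M2 the libraries lay closer together, at 414 to 436 TPM for Clec10a and 279 to 292 TPM for Mgl2, but not for Clec4e, at 59.7 to 86.0 TPM in KO M2 against 38.8 to 54.6 TPM in WT M2. Without both libraries numbered WT 3, a setting chosen after seeing the data, Clec10a in M2 was called higher in KO (log2 fold change 0.45, adjusted p = 0.0343), as was Clec4e (0.91, adjusted p = 0.0150). Calls over all genes rose as well in that fit, to 544 higher and 554 lower of 13012, against 156 and 188 of 12846 with all libraries.

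The partners through which some of these receptors signal were abundant in all libraries. The adaptor genes Tyrobp (1274 to 1593 TPM) and Fcer1g (942 to 1170 TPM) exceeded each receptor gene on average in every group, with overlapping ranges for Fcer1g and Clec4d in WT M0, and neither was called in any of the 5 comparisons. Syk stood at 99.5 to 135 TPM and was not called either. Of the 30 adaptor, Syk and CARD9 pathway genes fitted, 8 were higher and 10 lower with IL-4 in WT, and 7 were higher and 12 lower in KO, where 50.0% and 52.8% of all genes were called. Among those that averaged 5 CPM or more, the largest changes in WT were those of Nlrp3, the inflammasome sensor, which fell by 2.31 on the log2 scale, of Prkcd, the kinase that links Syk to CARD9 (2.14), and of Nfkb1 (1.47). Between genotypes 6 were higher and 3 lower in KO in M0 (9.78% of all genes called), among them Nlrp3 (-0.62), Vav3 (0.60) and Relb (-0.48). In M2 0 were higher and 1 was lower (Vav3, -0.34), against 1.21% and 1.46% of all genes. At an unadjusted edgeR p under 0.05, which 2611 of 12846 genes passed in M2, 5 were higher and 1 was lower. DESeq2 called 0 higher and 1 lower in M2.

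Of the 9 inhibitory receptor and phosphatase genes fitted, 4 were higher and 4 lower with IL-4 in each genotype (24.9% and 25.1% of all genes in WT, 26.8% and 26.0% in KO), and Csk, the kinase that restrains Src family kinases, was higher by 1.12 in WT and 1.21 in KO. The 14 endocytosis and glycan-processing genes had 7 higher and 2 lower in WT and 6 higher and 2 lower in KO, against the same shares of all genes, with Cltc, the clathrin heavy chain, at 1.42 in WT and 1.22 in KO. Itgb2 (0.38) and Itgam (0.45), the chains of the complement receptor CR3, were higher in KO in M0, where 3 of the 14 were higher and 1 was lower (Man1a, -0.32), against 5.50% and 4.27% of all genes. Of the 9 inhibitory genes, 2 were higher in KO in M0 (Pirb, 0.30, and Csk, 0.14) and 0 were lower, against the same shares of all genes. In M2, 2 were higher (Dok3, 0.38, and Csk, 0.24) and 1 was lower (Inppl1, -0.28), against 1.21% and 1.46% of all genes.

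Of 56 other C-type lectin genes, 40 lay below 1 TPM in all 12 libraries, among them Cd209a, Clec9a and Ly75. Of the 21 that could be tested, 6 were higher and 7 lower with IL-4 in WT, and 6 were higher and 9 lower in KO, against 50.0% and 52.8% of all genes called. Among those that averaged 5 CPM or more, Cd207 (langerin), Cd72 and Clec4a3 had the largest changes in WT, at 2.34, 1.85 and 1.84 on the log2 scale. Between genotypes 1 was higher and 2 were lower in KO in M0 (9.78% of all genes called), with Cd302 at 0.59 (adjusted p = 0.0400). Thbd, encoding thrombomodulin, was the 1 called in M2 (-0.70, adjusted p = 0.0157), where 2.68% of all genes were called. DESeq2 called 1 higher and 2 lower in M2, against 319 and 398 of 12096 genes. At an unadjusted edgeR p under 0.05, 3 were higher and 3 lower in M2, where 2611 of 12846 genes passed. Of the 13 IL-4 marker genes tested, 12 were higher with IL-4 in WT and in KO, against 24.9% and 26.8% of all genes. In KO 1 was lower (Stat6, -0.28), against 26.0% of all genes. Stat6 was also the 1 called in the difference between the responses (-0.23, adjusted p = 0.0480), where 3.24% of all genes were called. In edgeR 0 differed between the genotypes in M0 or in M2, where 9.78% and 2.68% of all genes were called. At an unadjusted p under 0.05 there were 3 higher and 1 lower in M0 and 0 higher and 1 lower in M2. Of all 12846 genes, 3252 passed that threshold in M0 and 2611 in M2. DESeq2 called 2 higher in M0 and 0 in M2, against 936 and 319 higher of 12096 genes.

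The genes whose levels followed each receptor most closely were found as those with the smallest root mean square difference in log2 CPM over the 12 libraries, after the mean of each gene was subtracted. For Mrc1 they were Slc39a12 (0.25), Cobll1 (0.29) and Ccl12 (0.35). Egr2 was the nearest to Clec7a (0.21) and also near to Clec10a (0.37), for which Socs1 was the first (0.36). For Mgl2 the nearest genes, Msx3 (0.83) and Retnla (0.84), were farther away, but 6 of the 12 libraries hold few Mgl2 reads, which limits any match. Pilrb2 (0.15) and Pilrb1 (0.29) were the nearest to Clec4n, Itga8 (0.26) to Clec4e, Tifa (0.10) to Clec4d, Tpst2 (0.07) to Clec4a2, Rala (0.08) to Clec12a and Ing1 (0.10) to Clec5a. The 12 libraries fall into 4 groups and are not independent points.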

How the data were processed

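Poly(A) RNA of 12 BMM libraries was sequenced with 75-nt reads (directional kit). The authors processed the reads with the Grape pipeline on GRCm38 and deposited, per library, RSEM expected counts (estimated counts), TPM and FPKM for 38887 genes, as well as gene lengths. The annotation release and the strand setting of the counting are not given in the sources used here. The authors' DESeq2 tables hold fold changes and p-values of their comparisons and were used only for gene symbols, which covered 9 of the 10 genes. GENCODE M21 supplied positions and the symbol of Clec7a, which it lists as a polymorphic pseudogene.

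Expected counts were rounded, filtered with filterByExpr by group and fitted in edgeR 4.0.16 (R 4.3.3) by the quasi-likelihood test with TMM factors, with a mean for each group over 12 libraries. P-values were adjusted over all 12846 genes by the Benjamini-Hochberg method, and each SE is the size of the log2 change divided by the root of its F value. Alternatives were RLE factors, DESeq2 1.42.0, 2 filters, limma 3.58.1 on log2(TPM + 1) and log2(TPM + 0.1), posterior-mean counts, the 6 libraries of a comparison, a replicate block and each library left out. On simulated counts for the 12846 genes, 83% of 200 genes changed by a log2 value of 1 were recovered for KO against WT in M0. For the difference between the responses it was 76.5%, and smaller changes were not simulated. An exact two-sided permutation test of 3 against 3 libraries cannot give a p below 0.1, and it gave 0.1 for Mrc1 in M0. The study gives 3 mice per group, and whether M0 and M2 libraries of one number came from the same mouse is not stated in the sources used here. Reads shared between genes are divided by estimation: for values over 100 counts the posterior SD was at most 0.532% of the count.

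The 10 genes and all lists were chosen with earlier results of these data known. All 10 were named, with the 3 genes nearest to each by level, and from each other list up to 3 called genes of the largest change that averaged 5 CPM or more. Tyrobp, Fcer1g and Syk were named in addition after their values were seen. Python 3.11.15 with pandas 2.3.3, numpy 2.4.6 and matplotlib 3.10.9 was used.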

Additional observations from a re-analysis of the deposited data

Results flagged for a closer look

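Mrc1 differed between the genotypes in its IL-4 response by a test of the difference itself: the log2 fold change with IL-4 was 3.27 in WT and 3.96 in KO, and KO minus WT was 0.69 (SE 0.14, edgeR adjusted p = 0.0233). Over all settings the adjusted p ran from 2.10e-04 to 0.0689. All 3 KO M0 libraries were below all 3 WT M0 libraries.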

How the results depend on the processing

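All 10 genes kept their direction and their calls for IL-4 in KO under every alternative, and in WT under every alternative but one: without both libraries numbered WT 3, Clec4a2 was not called. Of the genotype and difference counts, KO against WT in M0 (2 genes called) went to 1 in limma on either TPM scale, to 3 in DESeq2 and without a filter (Clec4a2 gained) and to 3 without both libraries numbered WT 3 (Clec4d gained, adjusted p = 0.0476), and ran from 1 to 4 when 1 library was left out. KO against WT in M2 (1 called) went to 0 in both limma fits and to 2 in DESeq2, without a filter and with the replicate block. It went to 3 without both libraries numbered WT 3 (added after seeing the data), where calls over all genes also rose. When 1 library was left out it ran from 0 to 3. The difference between the responses (1 called) went to 0 in both limma fits and from 0 to 2 when 1 library was left out. Calls gained were Clec10a and Clec7a in M0, Clec4e in M2 and Clec10a in the difference without WT M0 library 1, Clec4a2 in M0 and Clec4e and Clec4d in M2 without WT M0 library 3, and Clec4a2 in M0 without KO M2 library 1. The cause was not tested. Low counts limit Clec4n in M2 and Mgl2 in M0.

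The library numbers are shared by the groups, but the labels do not say that a number marks one mouse. Pairing was to be accepted where every M0 and M2 pair of one number had deviations from the group means that correlated above 0.1. With a prior count of 0.5 in log2 CPM the WT pairs had correlations of 0.268, 0.0865 and 0.321 and the KO pairs 0.150, 0.133 and 0.176, so pairing was not accepted. This choice is close to the limit and depends on a setting: with a prior count of 2, tried after the block fit had been seen, the WT pairs had 0.331, 0.103 and 0.364 and the KO pairs 0.166, 0.160 and 0.209, and all passed. The decision under 0.5 was kept. WT and KO libraries of one number had correlations of -0.0684 to 0.0403 over both settings. The replicate block was genotype and number for the IL-4 responses and their difference, and number alone for KO against WT. With the block by genotype and number, the difference had 3 genes called, Mrc1, Clec10a (adjusted p = 0.0100) and Clec4e (adjusted p = 0.00264). Calls over all genes rose there from 143 higher and 273 lower to 359 higher and 644 lower. With the block by number alone, which ties WT to KO libraries and pairs no M0 with M2 library of a mouse, Clec4e was called in M2 (adjusted p = 0.0426).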
